A study of Homo sapiens with 19 samples.

Results

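The HOX genes are the protein-coding homeobox genes of the HOXA, HOXB, HOXC and HOXD clusters, numbered from 1 to 13 by their place along a cluster. They were taken here by symbol, after the transcript named for each probe had been matched to RefSeq, and antisense transcripts were left out. The 38 described here each had at least 1 probe, among 18192 protein-coding genes with a named probe. Of these 38, 10 lie in the HOXA cluster, 10 in the HOXB cluster, 9 in the HOXC cluster and 9 in the HOXD cluster, and 34 genes had 1 probe and 4 had 2 probes.

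HOX proteins are transcription factors that give cells along the body axis their regional identity. Genes with low numbers act first and toward the head, and genes with high numbers act later and toward the tail and the tips of the limbs, an order called collinearity. In embryonic stem cells the clusters are largely kept silent by the Polycomb repressive complexes, and retinoic acid, WNT and FGF signals together with CDX factors open them as mesoderm and neural tissue form. HOXA9, HOXA10, HOXB4 and their TALE cofactors, of the MEIS and PBX families, are also well known from blood progenitors.

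KhES-3, a line of human embryonic stem cells, had per the labels been maintained on irradiated mouse embryonic fibroblasts in medium with serum replacement and basic FGF, whereas the methods of the study name feeder-free maintenance, and which was used for these samples was not settled. The cells were moved to a low-attachment dish in a serum-free medium for brown adipocyte induction, with the cytokines IGF-II, BMP4, VEGFA, KITLG, FLT3LG and IL-6. RNA was taken at 19 time points after induction, at 3 h, every 2 h from 4 to 16 h, every 4 h to 36 h and every 6 h to 72 h, all in this same medium, and hybridized to 1 array each, with no replicates and no array of cells before induction. All samples share 1 line, so the spread between cultures or lines is unknown.

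Each array gave a processed, background-subtracted signal for every spot and a mark that says whether the spot was well above background, which is the detection call used below. Levels are the log2 of the signal minus the 75th percentile of the array, so that 0 is the 75th percentile. Signals were brought to 1 scale on which every array had its 75th percentile at 871. The 75th percentile lay between 655 and 1003, and 49.6 to 64.7% of probes were well above background, lowest at 14 h. The arrays from 3 to 12 h lay on slide 1 (6 arrays), those from 14 to 42 h on slide 2 (8 arrays) and those from 48 to 72 h on slide 3 (5 arrays), so that slide and time partly coincide. Slides 1 and 2 were scanned on the same day and slide 3 on another. Every late minus early difference below compares slide 3 (60, 66 and 72 h) with slide 1 (3, 4 and 6 h), so there slide and time cannot be told apart. Of the pluripotent cell markers, all 7 with a probe were well above background on all 19 arrays, among them POU5F1, which maintains the embryonic stem cell state. In the fit on hours described below 0 of these 7 rose and 4 fell, beside 24.6% and 29.8% of all genes tested. The late minus early differences were -0.84 for ZFP42, -0.61 for PRDM14, -0.32 for POU5F1 and -0.29 for LIN28A, and with the slide as a block 0 passed. Of 10 fibroblast markers, COL1A1, COL1A2 and THY1 were well above background on all 19 arrays, whereas PDGFRB was so on 17, DCN on 9, POSTN and TWIST2 on 2 each, COL3A1 and LUM on 1 each and PRRX1 on none. Of the 5 that were tested, COL1A2 rose (late minus early 0.37) and PDGFRB fell (-0.92). The summed signal of the fibroblast markers was 30690 to 42630 on slide 1, 26780 to 34640 on slide 2 and 26470 to 47210 on slide 3. Most of this sum came from THY1 alone, with mean signals of 28000 early and 23500 late, beside 8140 and 7440 for COL1A1 and 4710 and 6080 for COL1A2. The sum thus mainly follows 1 gene, and the part of fibroblasts in the HOX signals was not tested.

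The upstream sequences of HOXA9 and HOXA10, the only HOX genes well above background on every array, are shown because their brighter probes stepped up together at 14 h. Each is the 250 bases before a start site in RefSeq (GRCh38.p14), on the minus strand and written 5′ to 3′, at chr7:27165538-27165787 for HOXA9 and chr7:27179862-27180111 for HOXA10. Capitals mark matches on either strand to TATAAA, the TATA box, or to TTTATG, the core of the site bound by CDX factors.
HOXA9: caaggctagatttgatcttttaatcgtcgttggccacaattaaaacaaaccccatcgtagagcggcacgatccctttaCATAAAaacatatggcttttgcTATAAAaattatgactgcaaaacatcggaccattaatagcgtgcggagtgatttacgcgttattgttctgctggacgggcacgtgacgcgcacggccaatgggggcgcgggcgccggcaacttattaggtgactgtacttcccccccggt
HOXA10: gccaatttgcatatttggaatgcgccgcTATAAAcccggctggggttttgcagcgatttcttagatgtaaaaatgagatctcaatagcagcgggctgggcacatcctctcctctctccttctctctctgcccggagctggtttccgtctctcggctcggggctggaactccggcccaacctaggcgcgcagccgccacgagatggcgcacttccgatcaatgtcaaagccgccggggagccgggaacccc
The HOXA9 sequence held 1 match to each of these motifs, and the HOXA10 sequence held 1 match to TATAAA. Of all 35116 upstream sequences of this length, 10.7% held TATAAA and 9.64% held TTTATG. The other motifs searched, also on both strands, were TGATNNAT for paired PBX and HOX proteins, present in 6.47% of all sequences, and AGGTCA for retinoic acid receptors, present in 12.1%, and neither was found in these 250 bases. Among the 27 sequences listed for 20 HOX genes, TATAAA was in 5, TTTATG in 3, TGATNNAT in 3 (HOXA2, HOXB1 and HOXD11) and AGGTCA in 0, with some genes listed at several start sites. The HOXA9 sequence had 20 CG dinucleotides and the HOXA10 sequence 19, beside a median of 19 over the HOX sequences and 11 over all sequences. These matches are descriptions of letters and not of bound sites. RefSeq lists a second start site of HOXA10 that is not shown, with its 250 bases at chr7:27174321-27174570, 24 CG dinucleotides and 1 match to TATAAA. Which of the 2 start sites belongs to the transcript read by the HOXA10 probes was not tested.

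Most HOX genes gave no lasting signal during the 72 h. With the brightest probe of each gene, 20 of 38 were well above background on at least 1 array, beside 91.0% of all protein-coding genes. Only 7 were so on at least 5 arrays, beside 83.6% of protein-coding genes, and 2 were so on all 19, beside 71.0%. The 7 genes were HOXA5, HOXA9, HOXA10, HOXB2, HOXB4, HOXD1 and HOXD9. In the map of the 38 genes by time, HOXA9 and HOXA10 form unbroken bright rows, HOXA5 and HOXB2 nearly unbroken dim ones, and the rest is scattered or dark.

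**Figure D1:**
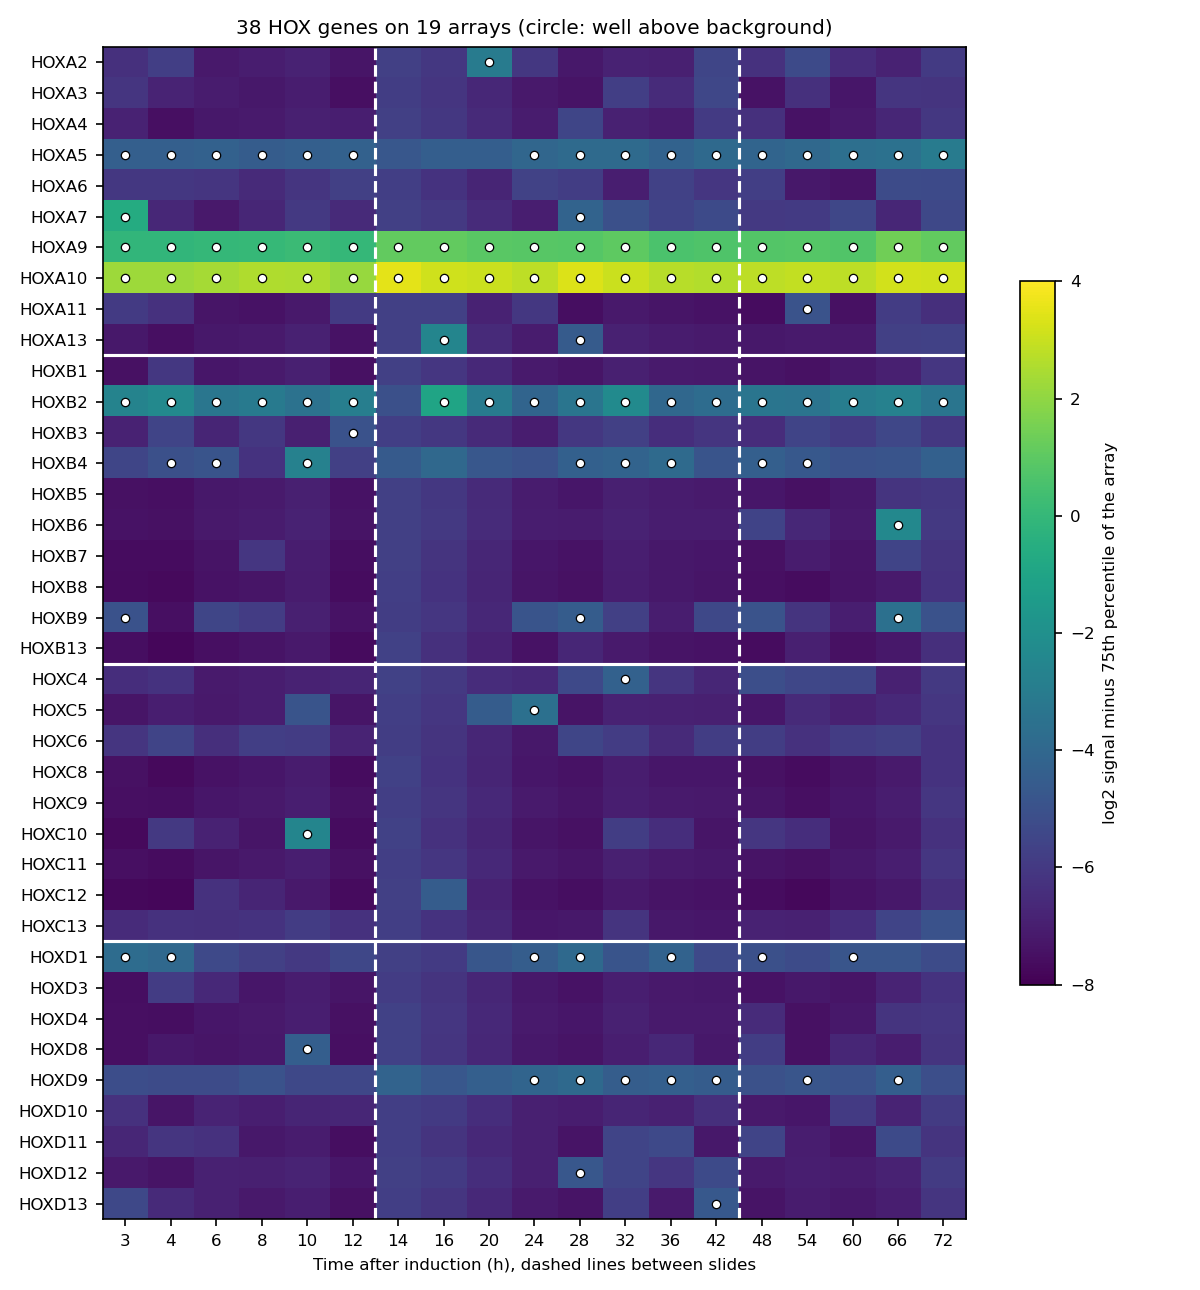
Level of each of the 38 HOX genes (rows, by cluster and number) on the 19 arrays (columns, hours after induction), as log2 signal minus the 75th percentile of the array, by colour. White circles mark spots well above background; 18 rows have none, and the HOXA9 and HOXA10 rows are filled on all 19 arrays.

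By brightest probe the clusters differed in how much was detected, which is given as a count because signals of different probes cannot be ranked. On each array, 73.2 to 84.0% of protein-coding genes were well above background. Of the HOXA genes, 7 of 10 were detected on at least 1 array and 3 on at least 5, and 60 of the 190 gene-by-array values (31.6%) were well above background. Of the HOXB genes, 5 of 10 were detected and 2 on at least 5 arrays, with 31 of 190 values (16.3%). The HOXD cluster had 5 of 9 genes detected, 2 of them on at least 5 arrays, with 17 of 171 values (9.94%). The HOXC cluster had 3 of 9 genes detected, each of them on 1 array, so that 3 of 171 values (1.75%) were well above background. No HOXC gene was detected on 5 arrays. Of the 60 HOXA values, HOXA9 and HOXA10 gave 19 each and HOXA5 gave 16. The other probes of HOXA9 and HOXA10 were well above background on 1 and 2 arrays, and those of HOXB2 and HOXD9 on 2 and 0. The order of the clusters therefore depends on a few genes and on the probe taken for them.

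By paralog number, and with the brightest probe of each gene, detection did not form a run from the low numbers upward. The genes detected on at least 5 arrays had the numbers 1 (HOXD1), 2 (HOXB2), 4 (HOXB4), 5 (HOXA5), 9 (HOXA9 and HOXD9) and 10 (HOXA10), that is, 4 genes with numbers up to 5 and 3 with higher numbers. For number 2, 19 of 38 values were well above background, all but 1 of them of HOXB2, and for number 9 it was 29 of 76, with 19 from HOXA9. For number 10 it was 20 of 57, of which HOXA10 gave 19, and for number 5 it was 17 of 57, of which HOXA5 gave 16. For the numbers 3, 6, 8 and 11 it was 1 of 57 each, and for 12 it was 1 of 38. For number 1 it was 7 of 38, all of HOXD1, for 4 it was 9 of 76, for 7 it was 2 of 38 and for 13 it was 3 of 76. For the numbers 2, 4, 5 and 10, all detections but 1 came from a single gene. The other probes of HOXA9, HOXA10, HOXB2 and HOXD9 were well above background on 1, 2, 2 and 0 arrays. The counts for the numbers 2, 9 and 10 thus depend on which probe stands for the gene, and no order by number is concluded.

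The number of HOX genes well above background on an array ran from 2 at 14 h to 11 at 28 h, with a median of 6, while 73.2 to 84.0% of protein-coding genes were. The lowest count and the lowest share of protein-coding genes fell on the same array, 14 h. At 28 h, 4 of the 11 detected genes (HOXA7, HOXA13, HOXB9 and HOXD12) were among those detected on at most 4 arrays. At 72 h, 4 genes were detected, HOXA5, HOXA9, HOXA10 and HOXB2.

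**Figure D2:**
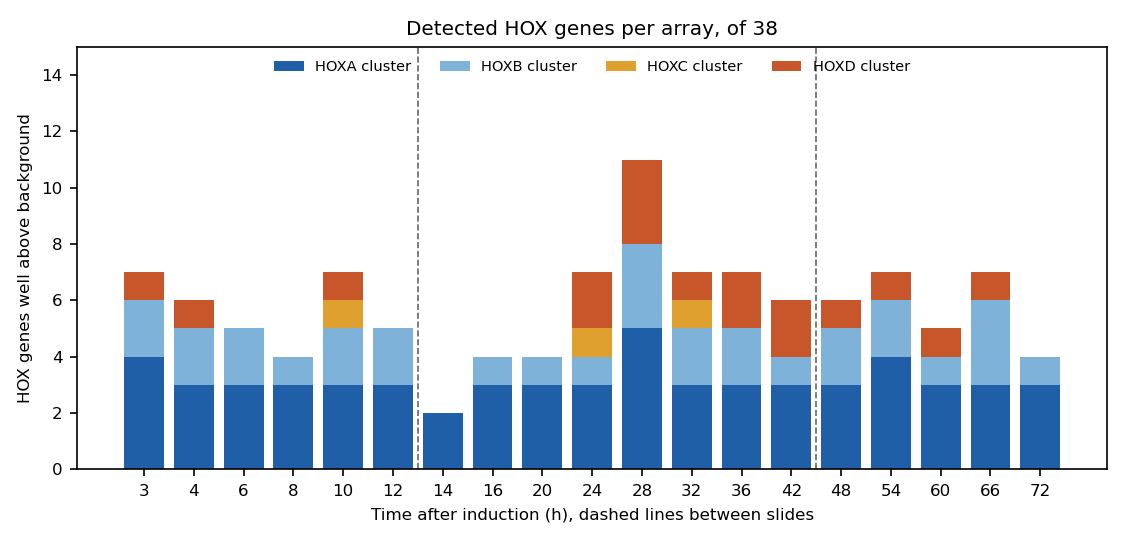
Number of HOX genes well above background on each array (bars, hours after induction), stacked by cluster, with dashed lines between slides. The count was lowest at 14 h (2 genes) and highest at 28 h (11 genes), and HOXC genes appear only at 10, 24 and 32 h, 1 at a time.

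HOXA10, a posterior HOX gene known from limb, uterus and blood progenitors, gave the following log2 levels with its brighter probe. They were 2.24, 2.25, 2.36, 2.55, 2.50 and 2.14 at 3, 4, 6, 8, 10 and 12 h, then 3.51, 3.13, 3.02 and 2.81 at 14, 16, 20 and 24 h and 3.35, 3.05, 2.71 and 2.61 at 28, 32, 36 and 42 h, and 2.82, 2.88, 2.81, 3.19 and 3.14 at 48, 54, 60, 66 and 72 h. The signal thus stood at 3830 to 5111 on slide 1 and at 5324 to 9930 on slide 2, and the ranges did not overlap. The slope on hours was 0.0082 ± 0.0037 log2 units per hour (SE, 19 arrays) and did not pass the test (limma, adjusted p = 0.0641), and the mean of 60, 66 and 72 h minus that of 3, 4 and 6 h was 0.77.

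HOXA9, the neighbour of HOXA10 and a regulator of blood stem cells, rose over the course. Its log2 levels were -0.09, -0.09, 0.01, 0.06, 0.19 and -0.01 on the 6 arrays of slide 1, in order of time. They were 1.12, 1.11, 0.94, 0.87, 0.84, 1.00, 0.61 and 0.70 on the 8 arrays of slide 2 and 0.79, 0.83, 0.74, 1.38 and 1.14 on the 5 of slide 3. Every array of slides 2 and 3 was above every array of slide 1. The slope was 0.0145 ± 0.0037 log2 units per hour (SE, limma, adjusted p = 0.00299), and the signal went from a mean of 837 at 3, 4 and 6 h to 1850 at 60, 66 and 72 h, 2.21-fold.

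For both genes the change lay between 12 and 14 h, which is also where slide 1 ended and slide 2 began. The level of HOXA9 was 1.14 higher at 14 h than at 12 h, and that of HOXA10 1.37 higher. Over the 32056 probes tested with both arrays, the median of this step was -0.07 and the 5th and 95th percentiles were -0.67 and 1.20, and 5.63% and 3.66% of probes had a step at least as large as those of HOXA9 and HOXA10. With the slide as a block the slopes were -0.0017 ± 0.0059 (adjusted p = 0.895) for HOXA9 and -0.0085 ± 0.0070 (adjusted p = 0.481) for HOXA10. Within slide 2 the slopes were -0.0156 (adjusted p = 0.0846) and -0.0228 (adjusted p = 0.129), and within slide 3 they were 0.0210 (adjusted p = 0.253) and 0.0158 (adjusted p = 0.233), in limma fits to the arrays of that slide alone. Scaled to the added spike-in RNA, the late minus early difference was 0.50 for HOXA9 (slope adjusted p = 0.346) and 0.12 for HOXA10, whose slope was -0.0002. Slide and time cannot be told apart at this step.

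HOXA5, known from the lung and the axial skeleton, also rose, and its highest levels came at the end. It was well above background on 16 arrays, all but those of 14, 16 and 20 h, with a lowest level of -4.76 at 14 h, a median of -4.25 and a highest of -3.00 at 72 h. On slide 1 it kept between -4.51 and -4.27, on slide 2 it was -4.76, -4.41 and -4.43 at 14, 16 and 20 h and between -4.25 and -3.84 from 24 h. The last 5 values were -4.13, -3.95, -3.62, -3.53 and -3.00 at 48, 54, 60, 66 and 72 h, each above the one before. The lowest signal well above background was also higher at 72 h (-4.06) than at 66 h (-5.03). The slope was 0.0159 ± 0.0024 log2 units per hour (SE, limma, adjusted p = 2.09e-05), and the late mean was 0.96 above the early mean, at signals of 83.3 and 42.7. In the fit with slide blocks its slope was 0.0300 ± 0.0059 (adjusted p = 0.00649), while 0 of the 7 tested genes passed within any slide alone. Scaled to the added spike-in RNA, the late minus early difference was 0.32 and the slope missed the threshold (adjusted p = 0.0688), as it did after normexp correction with quantile normalization, where the difference was 0.18 (adjusted p = 0.0807).

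The fit thus called 2 of the 7 tested HOX genes rising and 0 falling, and at an unadjusted p under 0.05 it was 3 rising and 0 falling. Over all 16692 genes tested by their brightest probe, 24.6% rose and 29.8% fell. Over all 32113 probes the split was 30.9% rising and 22.4% falling. With spike-in scaling it was 4.64% and 34.9%, with 0 HOX genes called, and in the fit with slide blocks 4.71% and 4.47%, with HOXA5 the 1 HOX gene called. With array median scaling, which left HOXA5 and HOXA9 called, it was 13.5% and 36.0%, and with no filter, which brought all 38 HOX genes into the fit and called the same 2, it was 19.4% and 13.1% of 50683 probes. The median array scaling lowered every late minus early difference by 0.40 and the spike-in scaling by 0.65.

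HOXB2, which patterns the hindbrain, was detected on 18 arrays and swung widely. Its log2 levels were -2.63, -2.36, -3.27, -3.11, -3.49 and -2.88 on slide 1, and -3.34, -3.38, -2.90, -2.74 and -3.32 on slide 3. On slide 2 they were -5.05, -1.00, -3.01, -4.13, -3.33, -2.26, -3.97 and -3.78, so that the lowest value (14 h, not well above background) and the highest (16 h) were on neighbouring arrays. Its slope was -0.0034 ± 0.0086 log2 units per hour (SE, limma, adjusted p = 0.757).

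HOXB4, known for the expansion of blood stem cells, was well above background at 4, 6, 10, 28, 32, 36, 48 and 54 h. Its lowest level was -6.26 at 8 h, its median -4.75 and its highest -2.73 at 10 h, next to the lowest. None of the last 3 arrays was well above background, although its level at 72 h (-4.33) was above that of the detected 54 h spot (-4.71). The lowest signal well above background was -4.06 on the 72 h array. The HOXB4 slope was 0.0056 ± 0.0077 (SE, limma, adjusted p = 0.557).

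HOXD1, an anterior member of its cluster, was well above background at 3 and 4 h, with levels of -3.77 and -3.96, and again at 24, 28, 36, 48 and 60 h. Between 6 and 16 h its levels were -5.33, -5.75, -6.01, -5.46, -5.73 and -5.96, all not well above background. At 28 h it stood at -3.89, and on slide 3 it lay between -5.25 and -4.83. The straight-line slope was 0.0005 ± 0.0071 (SE, limma, adjusted p = 0.961). Of the early arrays 2 of 3 were well above background and of the late ones 1 of 3.

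HOXD9, which acts in limb and trunk, was well above background at 24, 28, 32, 36, 42, 54 and 66 h and on no array of slide 1. Its levels were -5.43 to -4.99 on slide 1, -4.75 to -3.91 on slide 2 and -5.13 to -4.42 on slide 3. The level was 1.23 higher at 14 h than at 12 h, a step that 4.80% of probes reached, although neither array was well above background. Its slope was 0.0043 ± 0.0047 (SE, limma, adjusted p = 0.461). No early array and 1 of 3 late arrays was well above background, so no fold change is given.

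**Figure D3:**
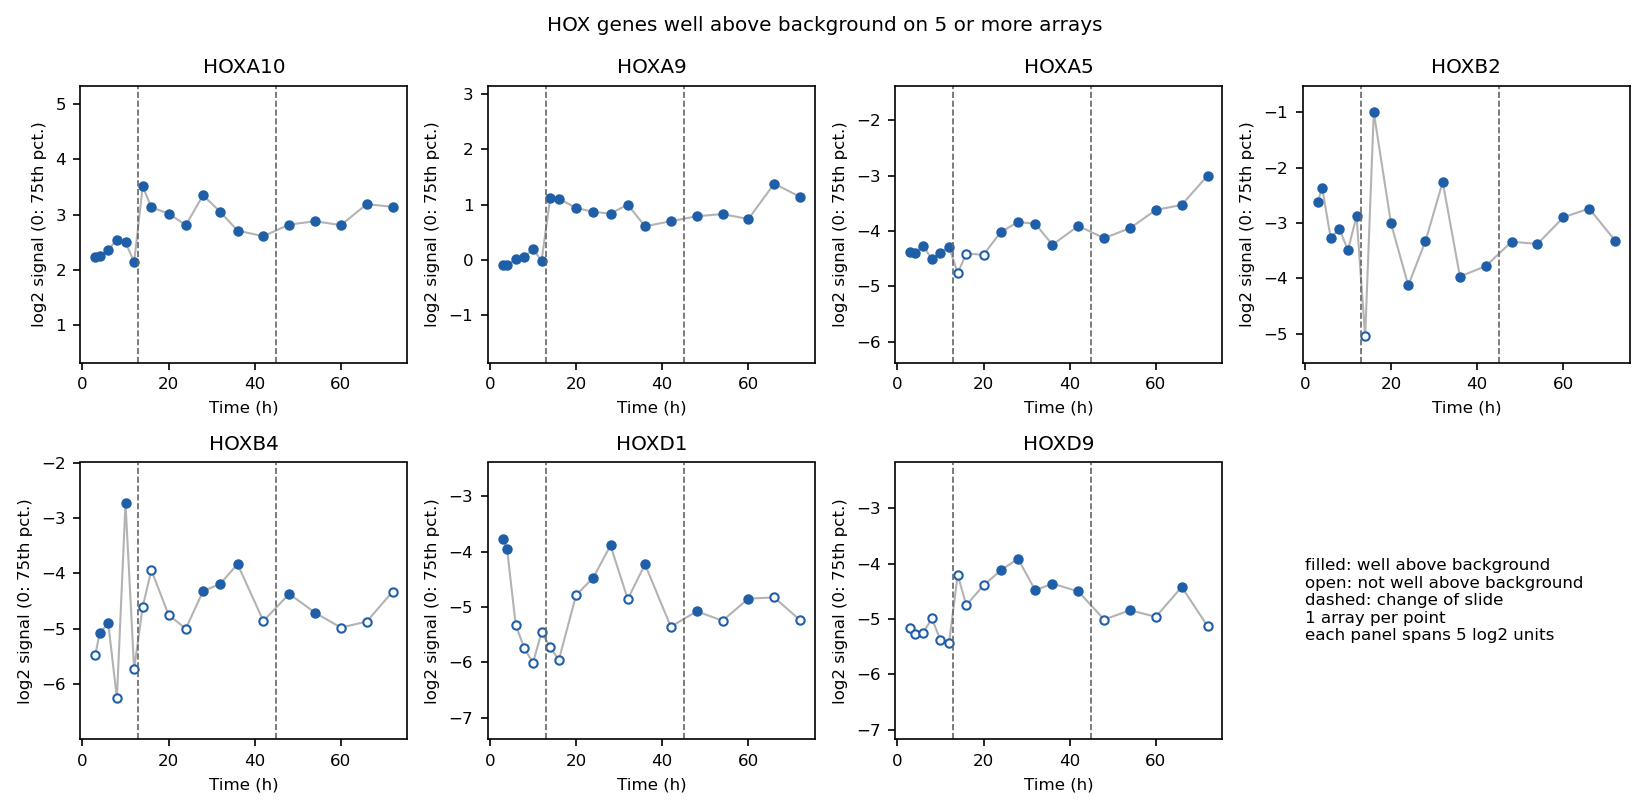
Log2 level (signal minus the 75th percentile of the array) against hours after induction for the 7 HOX genes detected on at least 5 arrays, 1 array per point, all panels with the same span. Filled points were well above background, open points were not, and dashed lines separate the slides; HOXA10 and HOXA9 step up between 12 and 14 h, and HOXA5 climbs from -4.13 at 48 h to -3.00 at 72 h.

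The 4 genes with a pair of probes gave different answers with each. The brighter HOXA10 probe (A_33_P3288649) was well above background on 19 arrays and the other (A_24_P77904) on 2, at 6 and 32 h, although both are named for the same transcript. For HOXA9 the probe A_33_P3416231 was so on 19 arrays and A_23_P500998 on 1, at 66 h. For HOXB2 it was 18 arrays and 2, at 4 and 20 h, and for HOXD9 it was 7 arrays and 0. The dimmer HOXA9 probe had a median level of -7.11 and the dimmer HOXA10 probe -7.19, both in the range of genes that were never detected. Each level given for these 4 genes is therefore that of 1 probe, and which transcripts a probe binds was not tested.

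**Figure D4:**
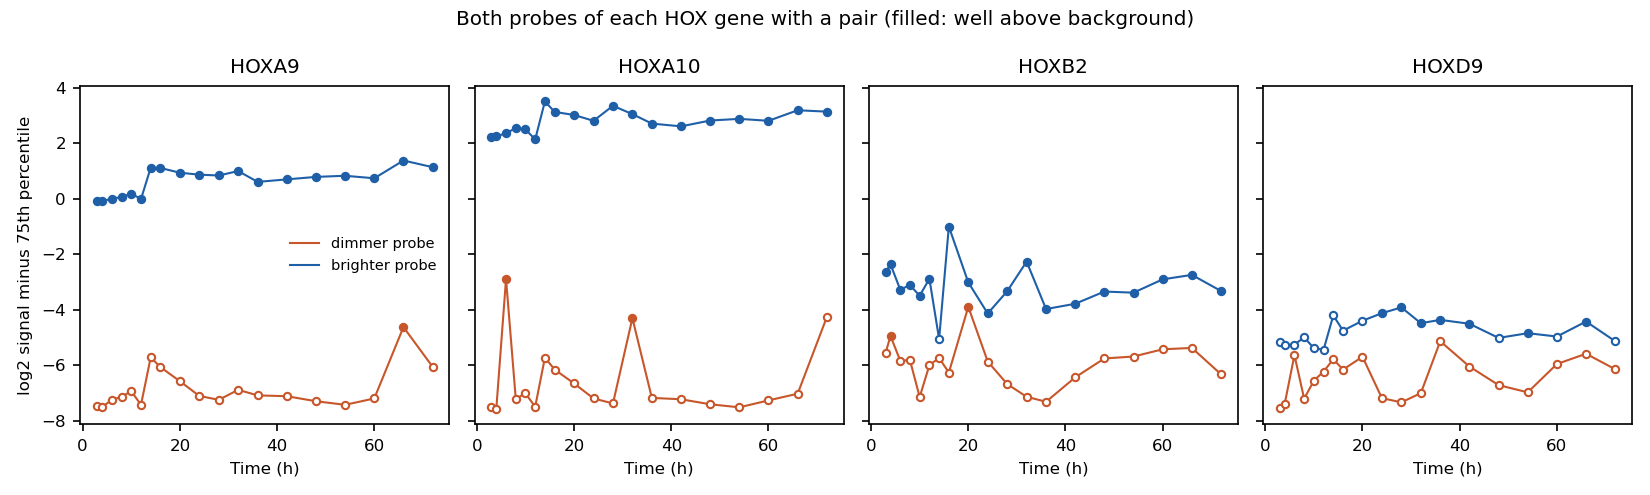
Log2 level against hours after induction for both probes of HOXA9, HOXA10, HOXB2 and HOXD9, with the brighter probe in blue, the dimmer in orange, and filled points well above background. In each panel the dimmer probe is well above background on at most 2 of 19 arrays.

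A further 13 HOX genes were detected on 1 to 4 arrays, 10 of them on 1 array, where 4.06% of protein-coding genes were detected on exactly 1 array and 7.45% on 1 to 4. In the HOXA cluster these were HOXA2 at 20 h, HOXA7 at 3 and 28 h, HOXA11 at 54 h and HOXA13 at 16 and 28 h. In the HOXB cluster they were HOXB3 at 12 h, HOXB6 at 66 h and HOXB9 at 3, 28 and 66 h. In the HOXC cluster they were HOXC4 at 32 h, HOXC5 at 24 h and HOXC10 at 10 h, and in the HOXD cluster HOXD8 at 10 h, HOXD12 at 28 h and HOXD13 at 42 h. No 2 of these detections of a gene were at neighbouring time points. Their 17 levels had a median of -4.27 and a highest value of -0.62 (HOXA7 at 3 h).

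The remaining 18 genes were not well above background on any array, beside 9.0% of protein-coding genes. They were HOXA3, HOXA4, HOXA6, HOXB1, HOXB5, HOXB7, HOXB8, HOXB13, HOXC6, HOXC8, HOXC9, HOXC11, HOXC12, HOXC13, HOXD3, HOXD4, HOXD10 and HOXD11. They include HOXB1, the marker of the hindbrain and of the early retinoic acid response, and genes of both ends of the clusters. Their levels lay between -7.78 and -4.49, where the lowest signal well above background was -5.68 to -3.57 by array, and values there have no order. For 9 of the 18 the highest level was at 14 h and for 11 the lowest was at 4 h, the arrays on which that lowest signal was itself highest and lowest. These transcripts were not detectable with these probes, which does not show that they were absent.

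Genes that act on or with the clusters were described from lists, by the count that passed the same fit. Each count stands beside 24.6% rising and 29.8% falling over all genes tested. With spike-in scaling the shares were 4.64% and 34.9% of all probes tested, and with the slide as a block 4.71% and 4.47%. Of 6 CDX and ParaHox genes, 4 were tested, and CDX1 and GSX1 rose while CDX2 and CDX4 fell. CDX2, a direct activator of posterior HOX genes, was well above background on 3 of 3 early arrays and 1 of 3 late ones, at mean signals of 102 and 37.8 (late minus early -1.43, adjusted p = 0.0470). The late mean includes spots not well above background. Both the highest CDX2 level of the course (-2.37 at 66 h) and the lowest (-6.21 at 72 h) were among the late arrays. GSX1, a ParaHox gene of the developing brain, was detected on 17 arrays and went from 44.3 to 95.5 (1.11, adjusted p = 0.000347). PDX1, the pancreatic ParaHox gene, and GSX2 were detected on 1 array each. With spike-in scaling 0 rose and 2 fell, and with the slide as a block 0 of the 4 passed, with adjusted p between 0.359 and 0.989. The other CDX1 probe did not pass (adjusted p = 0.452).

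Of 8 TALE cofactors, which bind DNA together with HOX proteins, 7 had a probe and 5 were tested, of which, by brightest probe, 2 rose (PBX3 and MEIS3) and 0 fell. The other PBX3 probe, also well above background on 19 arrays, did not pass the limma fit (late minus early 0.40, adjusted p = 0.343). With array median scaling, spike-in scaling or slide blocks 0 of the 5 passed in either direction. MEIS1, the partner of HOXA9 in blood progenitors, was well above background on 3 arrays and MEIS2 on none.

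Of 12 genes with a probe among Polycomb repressive complex 2, the KDM6 demethylases and the KMT2 methyltransferases, which set and remove the marks on silent and active HOX chromatin, 2 rose and 6 fell. The falling genes were EZH2, SUZ12, RBBP4, RBBP7, PHF19 and KDM6A, and the rising ones EZH1 and KDM6B. EZH2, the methyltransferase of the complex, had a late minus early difference of -0.81 (adjusted p = 5.36e-07), and its paralog EZH1 had one of 0.97 (adjusted p = 8.28e-05). PHF19, an accessory subunit that guides the complex to its targets, had a late minus early difference of -1.58 (adjusted p = 6.45e-10), and it was the member whose brightest probe passed with the slide as a block (adjusted p = 0.00151). With spike-in scaling 0 rose and 7 fell. The other probe of KDM6A did not pass (adjusted p = 0.362). KMT2A, counted as not passing by its brightest probe, had a pair of other probes that rose (adjusted p = 4.22e-05 and 0.000182), the former with the slide as a block too (adjusted p = 0.00542), and another RBBP4 probe also fell in that fit (adjusted p = 0.0227). The median late minus early difference of the list was -0.13, beside -0.05 over all genes tested.

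Of 12 retinoic acid genes, 8 were tested, of which 2 rose and 3 fell, beside 24.6% and 29.8% of all genes tested. CYP26A1, which degrades retinoic acid and is induced by it, had a late minus early difference of -1.93, at signals of 1550 and 5880 (adjusted p = 0.00182). RARA, a retinoic acid receptor, had a difference of -1.04 with its brighter probe (adjusted p = 0.0234) and of 0.69 with the other, which did not pass (adjusted p = 0.0866). STRA6, the receptor that takes up retinol and 1 of the 2 counted as rising, went opposite ways with its probes, at 0.69 for the brighter (adjusted p = 1.48e-05) and -0.78 for the other (adjusted p = 0.000316), so no direction is given for the gene. With spike-in scaling 0 rose and 4 fell. With the slide as a block the adjusted p was 0.450 for CYP26A1 and 0.805 for RARA. ALDH1A2, the main enzyme of retinoic acid synthesis in early mesoderm, was well above background on 1 array.

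Of 13 protein-coding genes beside the clusters, EVX1 and EVX2 among them, all were tested, and 5 rose and 1 fell, with a median late minus early difference of 0.16, which turned to 2 and 4 with array median scaling and to 1 and 4 with spike-in scaling. EVX1, a homeobox gene at the posterior end of the HOXA cluster and of the primitive streak, was detected on all 19 arrays, with levels from 1.71 at 6 h to 3.58 at 14 h, and did not pass (adjusted p = 0.299). TTLL6, a tubulin-modifying enzyme encoded beyond the HOXB cluster, had a late minus early difference of 1.45 (adjusted p = 4.49e-05) and passed with the slide as a block (adjusted p = 0.0132).

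Of 18 noncoding RNAs of the clusters, 8 had a probe and 3 were tested, with 1 rising and 1 falling. HOTAIR, transcribed in the HOXC cluster, was well above background on 19 arrays with its brightest probe, although no HOXC gene was detected on more than 1. Its 7 probes were well above background on 19, 19, 7, 1, 1, 0 and 0 arrays, and the brightest did not pass (late minus early 0.44, adjusted p = 0.204), while another well above background on 19 arrays did (0.89, adjusted p = 0.00237), as did the one detected on 7 (adjusted p = 0.00299). Neither call held with the slide as a block (adjusted p = 0.783 and 0.169) or with spike-in scaling (adjusted p = 0.576 and 0.0724). The late minus early difference was 0.81 for HOXB-AS3 (adjusted p = 0.0149). HAGLR, of the HOXD cluster, fell (adjusted p = 0.0488), and it was well above background on 8 arrays, 3 of 3 early and 1 of 3 late, at mean signals of 78.0 and 24.8 that include spots not well above background. HOXB-AS3 did not pass with array median scaling (adjusted p = 0.128) or spike-in scaling (adjusted p = 0.779), and with the slide as a block neither passed (adjusted p = 0.575 and 0.858). HOTTIP, at the posterior end of the HOXA cluster, was detected on none.

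**Figure D5:**
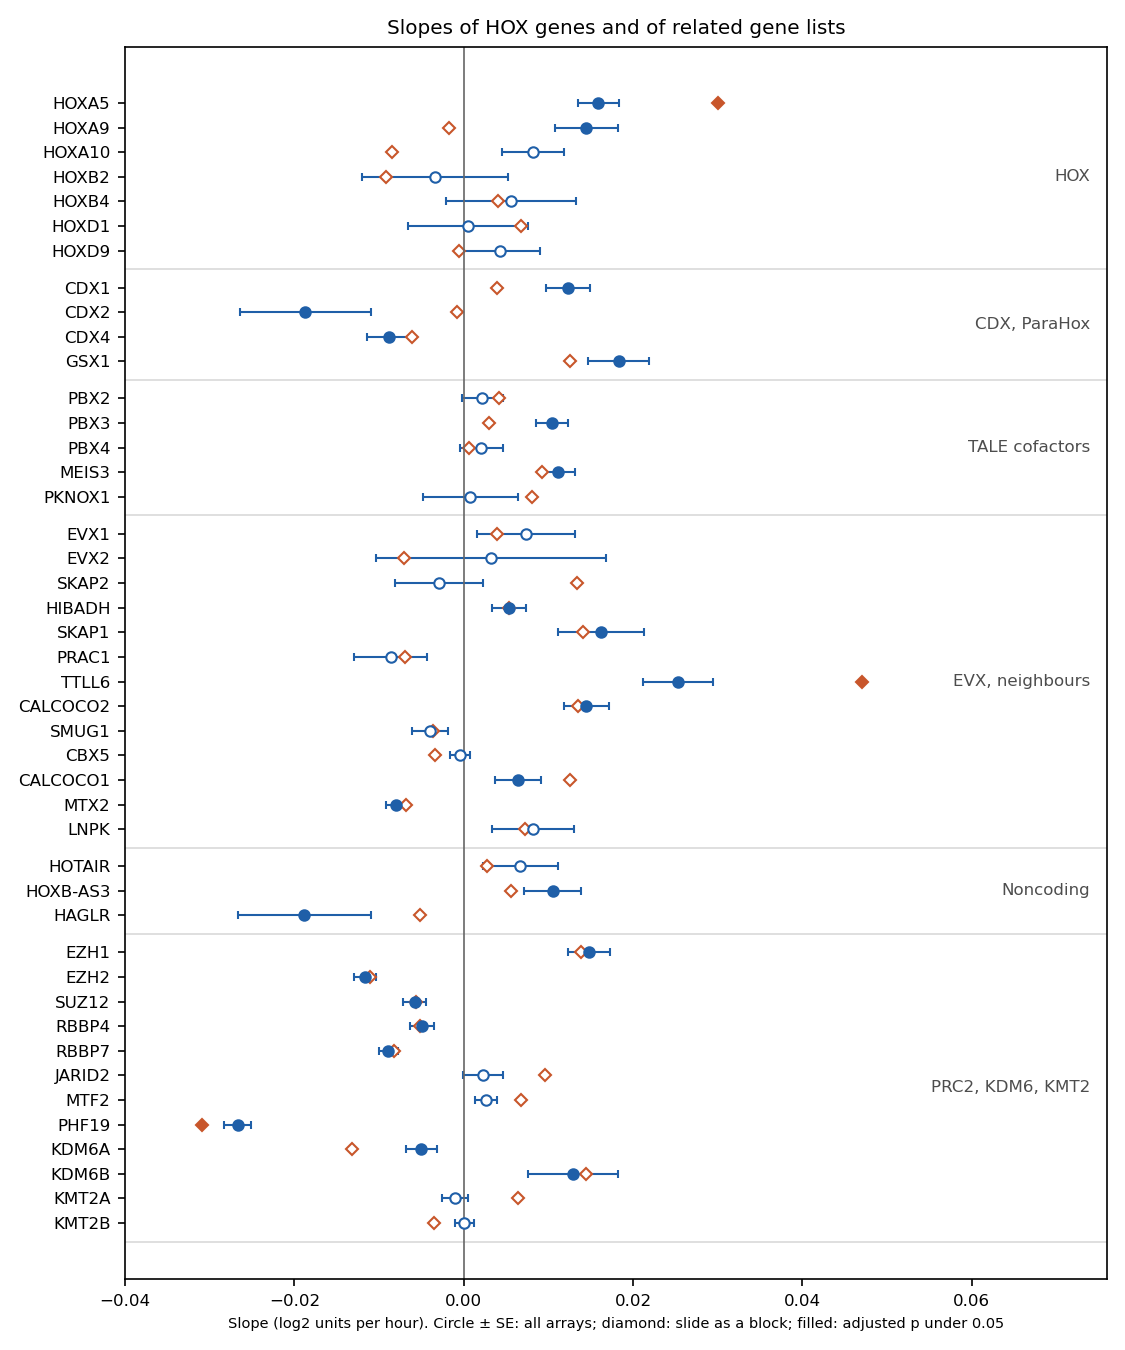
Slope of log2 level on hours (horizontal axis) for the 7 tested HOX genes and the tested members of 5 related lists, by brightest probe. Circles with bars are slopes ± SE over 19 arrays and diamonds the slopes with the slide as a block, filled where the adjusted p was under 0.05; HOXA9 is at 0.0145 as a circle and at -0.0017 as a diamond, and HOXA5 is filled in both.

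Markers of other cell types were set beside these values. Here too each count stands beside 24.6% rising and 29.8% falling over all genes tested. Of 9 primitive streak and mesoderm markers, 7 were tested and 4 rose, with a median late minus early difference of 1.33 on the log2 scale, and these were HAND1 (2.30), MESP1 (1.80), MESP2 (1.45) and TBX6 (1.33). Their adjusted p with the slide as a block lay between 0.0712 and 0.625. TBXT, the defining primitive streak gene, was detected on all 19 arrays and did not pass (0.10, adjusted p = 0.756). Neither did EOMES (-0.23, adjusted p = 0.684) or MIXL1 (-0.46, adjusted p = 0.292), and MSGN1, of the presomitic mesoderm, was detected on 2 arrays. Of 9 amnion and trophoblast markers, 8 were tested and 5 rose, which were HAND1, on both lists, CGB3 (1.27), GCM1 (1.20), KRT7 (0.65) and CGA. CGA was well above background on 0 of 3 early and 2 of 3 late arrays, so no fold change is given. GATA3 (0.06, adjusted p = 0.679), TFAP2A (0.27, adjusted p = 0.526) and ISL1 (-0.42, adjusted p = 0.822) did not pass the limma fit, and VTCN1 was detected on 1 array. With spike-in scaling 2 members of each of these lists rose, and with the slide as a block CGB3 passed (adjusted p = 0.0397). Of 6 neuroectoderm markers, 4 were tested and 2 fell, OTX2 (-1.13) and PAX6. PAX6 was at least 4.93-fold lower late than early, with no late array well above background (its other tested probe gave a bound of 1.78-fold). SIX3 (0.66, adjusted p = 0.0572) and LHX2 (0.49, adjusted p = 0.0841) had positive differences and did not pass the limma fit, and SOX1 and ZIC1 were detected on none. With the slide as a block the adjusted p was 0.458 for OTX2 and 0.963 for PAX6. The part of any of these cells in the HOX signals was not tested.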

How the data were processed

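KhES-3 cells were sampled at 19 time points and hybridized to 1 one-colour (Cy3) Agilent 8 × 60 K array each. The authors deposited the output of Agilent Feature Extraction 10.10.1.1, in which each spot has a processed intensity, with local background subtracted and no scaling between arrays, the pixel intensities of spot and background, and flags of 0 or 1 of another kind, such as well above background. The deposited value table holds the same intensities times 1 factor per array, blank where a spot was not well above background, and served as an alternative. The genome build of the probe design was not given in the sources used here.

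Flagged spots (0.632%) were left out, the spots of a probe averaged, and log2 intensity was scaled to the 75th percentile of the array. Of 50683 probes, 28170 were named through RefSeq (GRCh38.p14), for 20499 symbols, and the probe of highest mean log2 level stood for its gene. Slopes on hours came from limma 3.58.1 (R 4.3.3), run on the 32113 probes detected above background on 5 or more arrays, with Benjamini-Hochberg adjustment over all of them, so that 31 HOX genes were not tested. Late minus early is the mean log2 level of the last 3 arrays (60, 66 and 72 h) less that of the first 3 (3, 4 and 6 h), which are different time points and not replicates. Bounds use the lowest signal well above background on each array. With 1 array per time point, p-values measure the scatter of arrays around a line, and precision is limited by how many arrays there are. On simulated data, 64 of 100 probes changed by 1 log2 unit over the course and 93 of 100 changed by 2 were called, with 11 false calls among 31913. The simulated noise was independent between arrays and held no slide differences, so these counts do not cover calls that follow the slide. Only 200 of the 32113 probes were changed, whereas the fit to the data called 30.9% rising and 22.4% falling. The adjusted threshold was therefore another one, and neither the share called nor the number of false calls carries over to the data.

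Of the genes that the rule and the lists hold, 2 are not reported here. Every other HOX gene was accounted for, values at each time point were given for called HOX genes with a late minus early difference of at least 1 and for the 3 of highest mean level, and members of the related lists were named where called with such a difference, at most 6 a list, besides defining members named for their role. The HOX genes and all lists were chosen with earlier results of these data known. The alternatives were array median and spike-in scaling (7 of 10 levels), normexp (offset 50, on median pixel intensities) with quantile normalization, the deposited table, other filters and detection limits, log2 hours, a block for slide, 3 to 54 h, the mean of a gene's probes, 72 h minus 3 h and each array left out. Detection at 2 time points in a row, detection with each array left out and slopes within a slide were added after seeing the data. Python 3.11.15 with pandas 2.3.3, numpy 2.4.6 and matplotlib made the tables and figures.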

Additional observations from a re-analysis of the deposited data

How the results depend on the processing

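No paired analysis was possible because every time point is a single array. The number of HOX genes well above background, 20 with the brightest probe, was 18 to 20 without any 1 array. It was 35 with the weaker limit of a positive and significant signal. With the stricter limit of at least 2 times the lowest signal well above background it was 14. It was 7 on at least 5 arrays, 4 on at least 10, 2 on all 19, and 7 at 2 time points in a row. The 2 rising HOX genes became 0 with spike-in scaling, 1 (HOXA9) with probes well above background on all 19 arrays, where HOXA5 was not tested, 1 (HOXA5) with the slide as a block, and 2 to 3 without any 1 array, where HOXA10 was added without 14, 16 or 28 h (adjusted p = 0.012, 0.0433 and 0.0498). The count of falling HOX genes was 0 under every alternative, each array left out included. HOXA10 also passed after normexp with quantile normalization (adjusted p = 0.0072), in the deposited table (0.0249) and on log2 hours (0.0112), where with HOXA5 and HOXA9 3 genes rose in the last 2 of these settings. Across the related lists, 23 of 75 tested genes rose and 20 fell, beside 24.6% and 29.8% of all genes tested; 14 rose and 28 fell with array median scaling, 4 and 27 with spike-in scaling and 2 and 1 with the slide as a block. The cause of these differences was not tested.

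Slopes changed sign as follows, in log2 units per hour. HOXA9 was at -0.0017 with the slide as a block and -0.0156 within slide 2, and HOXA10 at -0.0002 with spike-in scaling, -0.0085 with the slide as a block and -0.0228 within slide 2. The rest had not passed the test. HOXB2 was at 0.0114 within slide 3. HOXB4 was at -0.0001, -0.0028 and -0.0017 with array median scaling, spike-in scaling and normexp, and -0.0013 within slide 3. HOXD1 was at -0.0053, -0.0080, -0.0024 and -0.0079 with these 3 and the deposited table, -0.0437 per doubling of hours, -0.2262 within slide 1 and -0.0020 to 0.0047 without any 1 array. HOXD9 was at -0.0015, -0.0042 and -0.0111 with array median scaling, spike-in scaling and the deposited table, -0.0006 with the slide as a block, and -0.0206 and -0.0007 within slides 1 and 2. Without any 1 array, the slopes of HOXA5 (0.0132 to 0.0167) and HOXA9 (0.0133 to 0.0159) passed the test each time. Signals within about 1 log2 unit of the lowest signal well above background, which is where HOXA5, HOXB4, HOXD1 and HOXD9 lay on most arrays, carry the least certain values.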

Other observations

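Of the 13 HOX genes detected on 1 to 4 arrays, 6 had a single spot at least 3 log2 units above the gene's own median, beside 34.6% of the 1355 protein-coding genes detected that rarely. They were HOXA2 at 20 h, HOXA7 at 3 h, HOXA13 at 16 h, HOXB6 at 66 h, HOXC5 at 24 h and HOXC10 at 10 h. In the raw median pixel intensity 5 of these spots stood clear of the other arrays, and that of HOXC5 did so narrowly. The HOXA7 spot had 638.5 at 3 h and 75 to 105 on the other 18 arrays, that of HOXA13 235 at 16 h and 62.5 to 108 elsewhere, and that of HOXC10 217 at 10 h and 62 to 92 elsewhere. For HOXB6 it was 176 at 66 h beside 57 to 102, for HOXA2 168 at 20 h beside 51 to 92, and for HOXC5 126.5 at 24 h beside 59.5 to 120. None of the 6 was well above background at the time point before or after, and no second array of the same time point exists.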
